A study of Mus musculus with 2 samples.

Results

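Lung fibroblasts were taken from 2 single-cell libraries as cells with at least 5 UMIs over Col1a1, Col1a2, Col3a1, Dcn and Mfap4. A UMI marks 1 captured transcript molecule. These cells also had 500 to 5000 detected genes, under 7.5% mitochondrial UMIs, under 5% of UMIs from S100a8 and S100a9, no UMI of Csf1r or Cd79a, and fewer than 3 UMIs each over Cox4i2, Higd1b and Pdgfrb (mural cells) and over Cdh5 and Cldn5 (endothelium). The rule kept 254 of 16995 cells, namely 106 of 8662 after saline and 148 of 8333 after nanoparticles (NP). Because measured transcripts chose the cells, the levels of those genes describe the gate and test nothing. Of the 21 barcodes that occurred in both libraries, 0 were fibroblasts.

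The lungs came from female BALB/cJ mice aged 12 weeks, taken 14 days after inoculation of 100000 cells of 4T1, a mouse mammary carcinoma line that spreads to the lung. By the study's methods these were 4T1-luc2-tdTomato cells, which carry luciferase and red fluorescent reporters. All mice carried tumors, and from day 1 after inoculation they received intravenous saline or NPs of the polymer PLG every 3 days. The labels put 4 pooled mice behind each library. The study's legend for this experiment also gives 4 per group, while its methods give another number. Because the mice were pooled, animals cannot be told apart. There was 1 library per condition and no tumor-free lung, so no test between conditions was possible and every interval below is a 95% interval that covers counting error only.

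Lung fibroblasts build the collagen and elastin scaffold of the airway and alveolar wall. Alveolar fibroblasts lie beside the epithelium and are known for Tcf21, Npnt and Inmt. Adventitial fibroblasts form the cuffs around vessels and airways and are known for Pi16, Dcn and complement genes. A further population with contractile genes and Hhip, an inhibitor of hedgehog signaling, lies along airways and alveolar ducts. Fibroblasts also respond to interferons and to NF-κB signals, with antigen presentation genes and with chemokines that recruit leukocytes.

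The markers fitted a fibroblast label for most but not all of the cells. Col3a1, a fibrillar collagen, had 1032 UMIs in 90 of the saline cells and 766 UMIs in 120 of the NP cells. It is a gene of the rule, so these counts describe the gate and are no support for the label. Inmt, an enzyme gene that the rule did not use, was detected in 62.3% of saline and 68.2% of NP fibroblasts, against 2.76% and 7.44% of the other cells. Pecam1, an endothelial gene, was detected in 2 saline and 4 NP fibroblasts, and Ptprc, the pan-leukocyte gene, in 7 and 11. This pair was chosen after its values were seen. However, 23 saline and 7 NP cells carried Msln or Upk3b, which mark the mesothelium that covers the lung. No fibroblast of either library had 1, 2 or 3 UMIs over this pair, so these cells formed a separate set, named mesothelial-marked below.

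**Figure D1:**
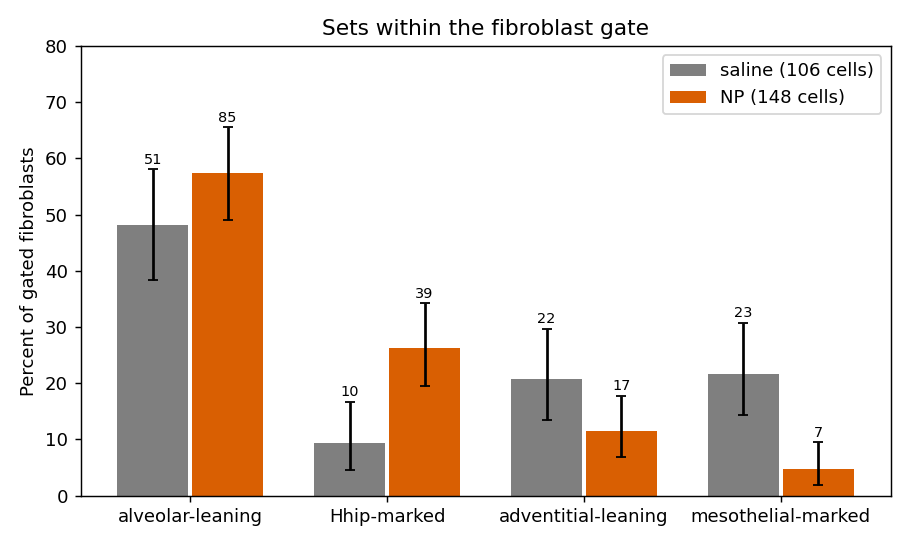
Percent of the gated cells in each set, by library, with exact binomial 95% intervals and the number of cells above each bar. Mesothelial-marked cells were 21.7% of the saline gate and 4.73% of the NP gate, and Hhip-marked cells were 9.43% and 26.4%.

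The other cells were divided by their own transcripts after the values were seen. Cells with at least 2 Hhip UMIs were called Hhip-marked, and the rest leaned to the alveolar or the adventitial list, by which list had the larger share of its genes detected. Alveolar-leaning cells were the most frequent set in both libraries, with 51 of 106 cells after saline (48.1%, 38.3% to 58.0%) and 85 of 148 after NP (57.4%, 49.0% to 65.5%). Hhip-marked cells were 10 saline cells (9.43%, 4.62% to 16.7%) and 39 NP cells (26.4%, 19.5% to 34.2%), and these intervals did not overlap. Adventitial-leaning cells were 22 saline (20.8%, 13.5% to 29.7%) and 17 NP cells (11.5%, 6.84% to 17.8%). Mesothelial-marked cells made up 21.7% after saline (14.3% to 30.8%) and 4.73% after NP (1.92% to 9.50%).

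To set depth aside, every cell was thinned to 1500 UMIs, which left out 9 saline and 14 NP cells. Hhip-marked cells were then 7.22% of saline and 27.6% of NP fibroblasts, and mesothelial-marked cells were 19.6% and 5.22%. Adventitial-leaning cells were 30.9% and 14.2%, so the direction was the same for each of the 3 sets. Near the lines that divide the sets, 3 saline and 7 NP fibroblasts had 1 Hhip UMI, while 1 cell in each library had exactly 2. The share of detected alveolar genes lay within 10 percentage points of the adventitial share in 12 saline and 13 NP cells. Of these, the line placed 2 saline and 6 NP alveolar-leaning cells, and 3 saline and 1 NP adventitial-leaning cells. The others were mesothelial-marked or Hhip-marked. The sets also differed in depth. Mesothelial-marked cells held medians of 11998 saline and 8686 NP UMIs, against 4644 and 4216 in alveolar-leaning cells. Over all fibroblasts the medians were 5864.5 UMIs for saline and 4133 for NP.

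**Figure D2:**
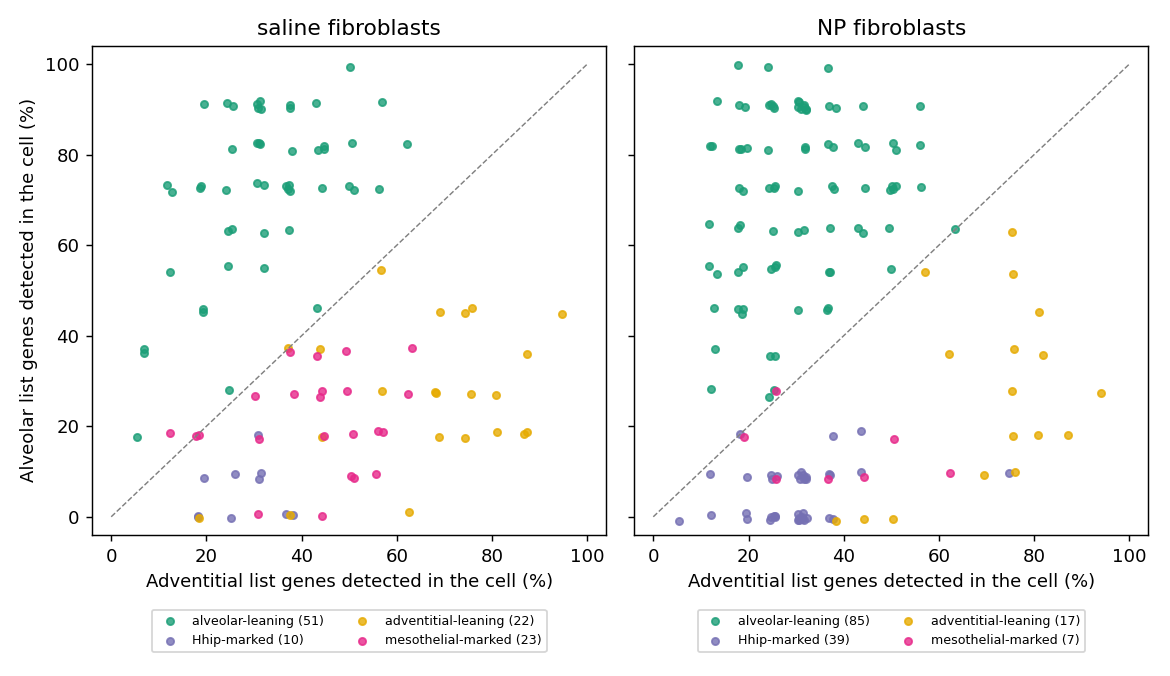
Share of alveolar list genes (y axis, percent) against adventitial list genes (x axis, percent) detected in each gated cell, with saline at left and NP at right, colored by set with cell numbers in the key. Points are shifted at random by at most 1 percentage point; most Hhip-marked cells lie at the bottom left, with a median of 4.55% of alveolar genes detected in saline and 0 in NP.

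The share of fibroblasts among all cells was 1.22% (1.00% to 1.48%) after saline and 1.78% (1.50% to 2.08%) after NP, 1.45 times as high. The direction depended on what was counted with them. Among cells with under 5% of UMIs from S100a8 and S100a9, which leaves out most neutrophils, fibroblasts were 3.41% of 3113 saline and 2.85% of 5190 NP cells. Among cells without a Ptprc UMI they were 13.4% of 740 saline and 7.22% of 1897 NP cells. Endothelial cells, chosen by their own markers, numbered 367 after saline and 1304 after NP, and pericytes numbered 12 and 42. Shares of this kind also depend on how well each cell type survived dissociation, which was not tested.

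Near the edge of the rule, 7 saline and 6 NP cells had 4 marker UMIs and stayed outside, and 5 and 7 cells had exactly 5 and were inside.

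To compare expression, the UMIs of all fibroblasts in a library were summed, to 736639 in saline and 754561 in NP, and each gene was scaled to CPM, its count per 1e+06 UMIs of that sum. Of 4615 genes with at least 50 UMIs over both libraries, 99 (2.15%) were at least 2-fold higher in NP and 199 (4.31%) were at least 2-fold lower, and the median log2 ratio was −0.01. The genes furthest apart came from few cells. Without the mesothelial-marked cells and without the NP cells that held at least 100 UMIs of Sftpc or Hbb-bs, 83 saline and 140 NP cells were left, which are called the remaining fibroblasts. Among 3710 genes in these, 54 (1.46%) were at least 2-fold higher and 73 (1.97%) were lower. These shares over all genes are the reference for the list counts below, in the gate and in the remaining fibroblasts. Of the 99 higher genes 34 were again at least 2-fold higher (34.3% of the first list and 63.0% of the second), and of the 199 lower genes 41 were again lower (20.6% and 56.2%). However, 74 of the 99 and 72 of the 199 genes had at least 50 UMIs in the remaining fibroblasts, so the others were not measured there. Genes at 50 UMIs are fewer in the single sets. In alveolar-leaning cells 1.24% of 2264 genes were at least 2-fold higher and 1.06% lower, and in adventitial-leaning cells 3.86% of 829 were higher and 4.1% lower. The alveolar-leaning counts include the NP cell rich in Sftpc, and 6 of the 7 measured epithelial genes were among the higher ones. In Hhip-marked cells the shares were 5.44% higher and 1.81% lower of 496, and in mesothelial-marked cells 1.58% and 6.11% of 949. In pericytes, which lie outside the gate, 6.31% of 650 genes were higher and 5.08% lower.

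**Figure D3:**
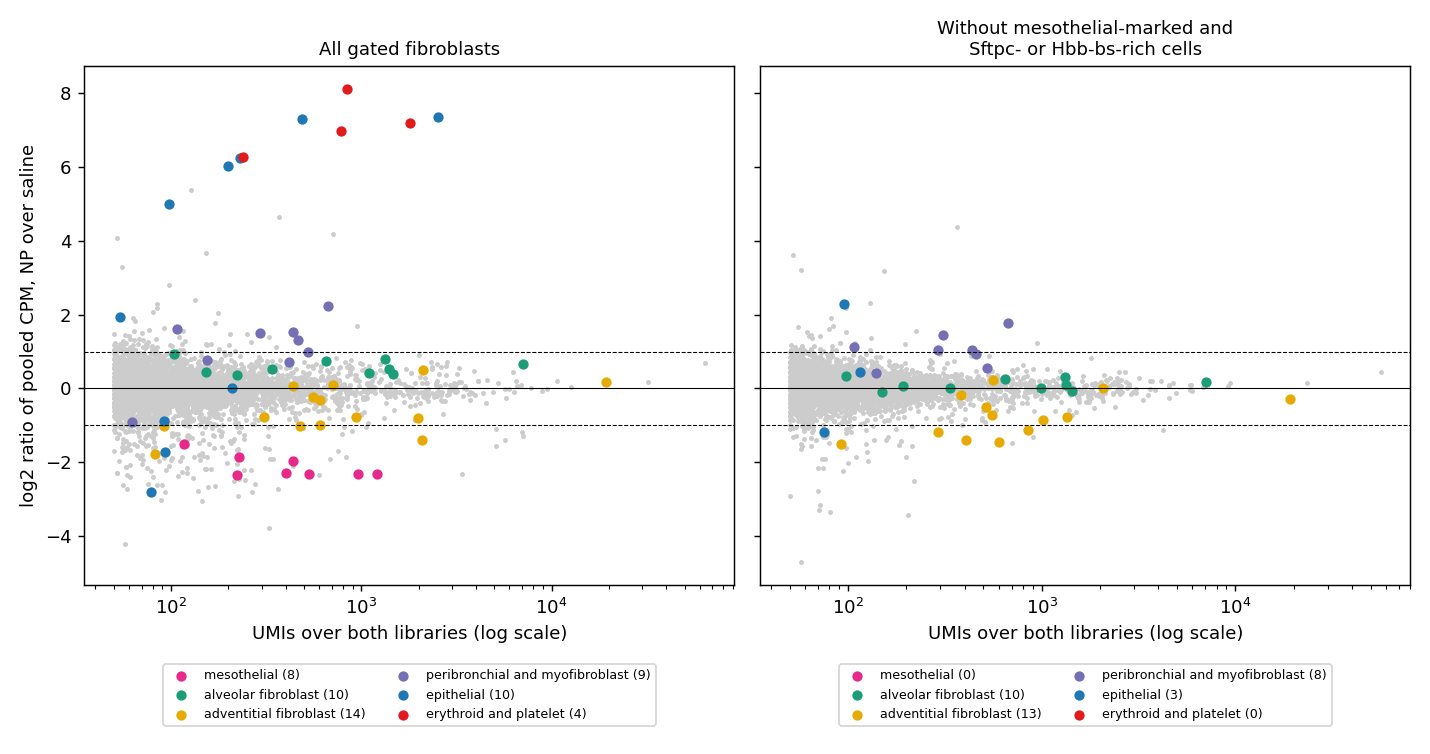
The log2 ratio of pooled CPM, NP over saline (y axis), against the UMIs of each gene over both libraries (x axis, log scale), for all gated cells at left and the remaining fibroblasts at right. Gray points are all genes with at least 50 UMIs, colored points are list genes with their number in the key, and dashed lines mark 2-fold. The 8 mesothelial genes lie below the lower line at left and leave the plot at right.

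The 8 mesothelial genes were all at least 2-fold lower in NP, with a median log2 ratio of −2.30. Msln, a surface protein of mesothelium, had 1006 UMIs in saline (1366 CPM) and 209 in NP (277 CPM), a log2 ratio of −2.30 (−2.52 to −2.09). Within the mesothelial-marked cells alone its level was 3868 CPM in saline and 3688 CPM in NP. Msln and Upk3b define the set, so this level is a description. The set held 23 and 7 cells. Msln lies at chr17:25748613-25754378 on the minus strand of GRCm38. Rspo1, a Wnt agonist, had 197 saline UMIs, of which 190 were in mesothelial-marked cells, and 44 NP UMIs. Aldh1a2, which makes retinoic acid, had 158 and 40, of which 154 and 37 were in that set. Rarres2, the precursor of the chemoattractant chemerin, had 4805 and 2188 UMIs over the gate, and 710 and 1111 in the remaining fibroblasts (0.13), where the interval reached 0. Many of the 12 genes with the lowest ratios in the gate were concentrated in the same cells. Slurp1, a secreted epithelial protein, had 306 saline UMIs and 23 NP UMIs, all in mesothelial-marked cells, and Fgfbp1, which releases fibroblast growth factors from matrix, had 314 and 49, with all but 1 there. Dpp4, a surface peptidase, was less so, with 104 of its 146 saline UMIs there.

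The 12 genes with the highest ratios were led by transcripts of other cell types. Sftpc, a surfactant protein of alveolar type 2 epithelium, had 15 saline and 2515 NP UMIs, and 2431 of the NP UMIs were in 1 cell. Sftpa1, Sftpb, Cxcl15, Slc34a2 and Lyz2 were in the same list. Hbb-bs, a hemoglobin chain of red cells, had 12 and 1783 UMIs, and 1774 of the latter were in 1 mesothelial-marked cell. In all, 17 of the 99 higher genes had at least 50% of their UMIs in a single cell. The hemoglobin genes Hba-a1 and Hba-a2 are nearly identical copies, and their separate counts are uncertain.

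Transcripts that mark other cell types were summed over the gate for the same reason. The 14 epithelial genes summed to 494 CPM in saline and 4968 CPM in NP, led by Sftpc, and the 10 erythroid and platelet genes to 42.1 and 4861 CPM, led by Hbb-bs. The 15 neutrophil genes summed to 1943 and 932 CPM, led by S100a9, and the 16 monocyte and macrophage genes to 224 and 973 CPM, led by Lyz2, with 587 of its 673 NP UMIs in 1 cell. The other 2 measured genes of that list were lower, Tyrobp with 61 and 14 UMIs and Fcer1g with 45 and 22, and in the remaining fibroblasts its sum was 298 CPM in saline and 204 CPM in NP. Csf1r and Cd79a were at 0 by the rule. The 12 lymphocyte genes held 8 and 23 UMIs in all, and the 15 endothelial genes 305 and 272, led by Kdr. Pericyte genes summed to 191 and 170 CPM. Epcam, an epithelial gene, had 31 UMIs in 5 saline cells and 4 UMIs in 1 NP cell of the gate. In the remaining fibroblasts it was at 0 in both libraries. The whole epithelial list was at 241 CPM in saline and 360 CPM in NP there (0.58, 0.25 to 0.91). Of its 3 measured genes 2 were above 0 and 1 below.

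**Figure D4:**
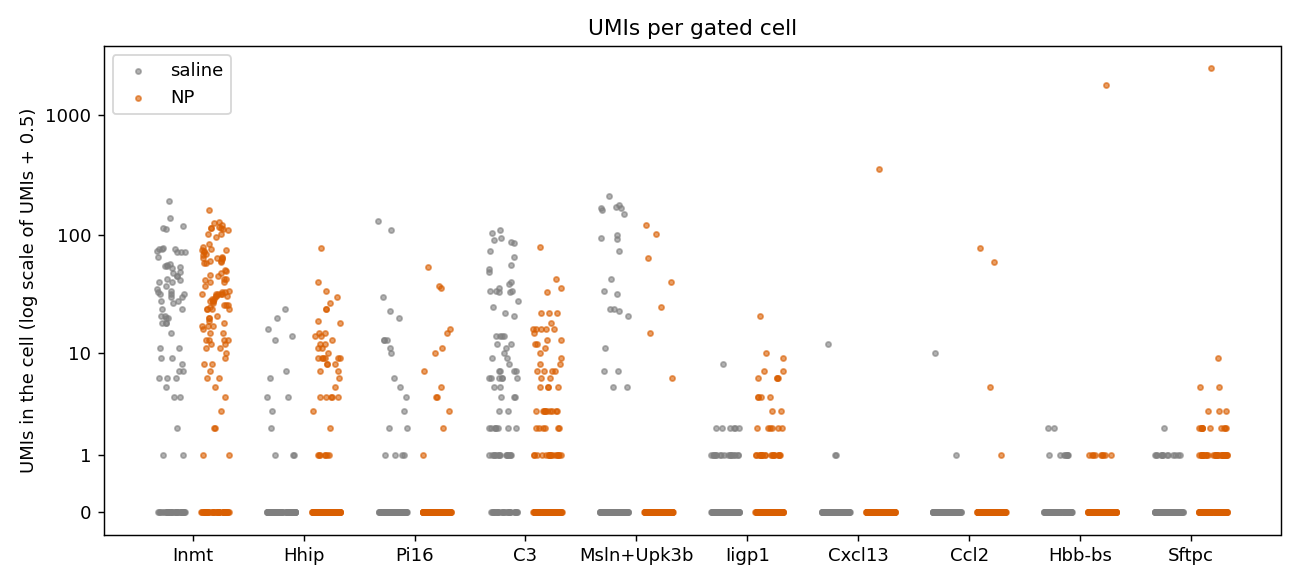
UMIs of selected genes in each gated cell (y axis, log scale of UMIs + 0.5), with 106 saline cells in gray and 148 NP cells in orange. Inmt and C3 were spread over many cells, while Cxcl13, Hbb-bs and Sftpc in NP each came mainly from 1 cell, with 355, 1774 and 2431 UMIs.

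Alveolar fibroblast genes were higher over the NP gate but nearly level once the other cells were removed. All 10 measured genes of the list had ratios above 0 in the gate, with a median of 0.53 and none at 2-fold. Inmt had 2690 UMIs in saline (3652 CPM) and 4377 in NP (5801 CPM), a log2 ratio of 0.67 (0.60 to 0.74). The gene lies at chr6:55170626-55175043 on the minus strand. In the remaining fibroblasts Inmt was at 5630 and 6413 CPM (0.19, 0.12 to 0.26), and the median of the list was 0.08. Tcf21, a transcription factor of alveolar fibroblasts, kept a log2 ratio of 0.32 (0.16 to 0.49), with 474 saline and 846 NP UMIs. Col13a1, a transmembrane collagen, had 137 and 198 UMIs there, at 0.02 (−0.30 to 0.34). Meox2, another mesenchymal transcription factor, had 48 and 114 UMIs (0.74, 0.24 to 1.25).

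Most adventitial genes were lower. In the gate 4 of 14 were at least 2-fold lower and 0 higher, with a median of −0.78, and in the remaining fibroblasts 5 of 13 were lower, with a median of −0.76. Over all genes 4.31% were lower in the gate and 1.97% in the remaining fibroblasts. Their summed level over the gate was nearly level, at 20841 and 19855 CPM, and the most abundant gene, Gsn, which encodes the actin-severing protein gelsolin, was at 12116 CPM in saline and 13784 CPM in NP. Pi16, a secreted protease inhibitor that marks these cells, had 395 UMIs in the saline and 205 in the NP remaining fibroblasts, or 829 and 302 CPM, a log2 ratio of −1.46 (−1.71 to −1.21). Thinned to 1500 UMIs a cell, as the mean over all draws, the ratio was −1.16 (−1.77 to −0.60), and 2 saline cells held 130 and 110 of the UMIs. Pi16 lies at chr17:29317680-29330593 on the plus strand. Within the adventitial-leaning cells, 22 saline and 17 NP, 0 of 13 genes of the list were at least 2-fold lower and 1 was higher, with 10 below 0 and a median of −0.44. The higher gene was Igfbp4, which binds insulin-like growth factors, at 1099 and 2565 CPM (1.22, 0.95 to 1.50). In the same cells Pi16 had 393 and 194 UMIs, a ratio of −0.50 (−0.75 to −0.25). With 1 NP cell rich in Cxcl13 left out, its ratio within that set was −0.26 (−0.52 to −0.01), and with the whole set thinned it was 0.01 (−0.61 to 0.59). C3, the central complement component, was at 2589 CPM in saline and 1747 CPM in NP within the set (−0.57, −0.81 to −0.32), with 79 of its 205 NP UMIs in the Cxcl13-rich cell. Without that cell it was at 1263 CPM in NP (−1.04, −1.33 to −0.75). Dcn, the collagen-binding proteoglycan decorin, was at 14579 and 8258 CPM in the whole set, which is a description because Dcn is a gene of the gate. The adventitial list also placed cells in this set, so its levels there are conditioned on that choice.

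The fibrillar collagens are a description, since Col1a1, Col1a2 and Col3a1, 3 of the 5 measured, were used to choose the cells. All 5 had ratios below 0 over the gate, with a median of −0.27, and none was at 2-fold. In the remaining fibroblasts the median was −0.60, with Col1a1 at 990 CPM in saline and 653 CPM in NP and Col3a1 at 1643 and 1050 CPM. For Col1a1 a single saline cell held 86 UMIs, and without the top cell of each library its log2 ratio was −0.38 in place of −0.60. The other 2 played no part in the gate. Col5a1 had 71 and 65 UMIs in the remaining fibroblasts (−0.64, −1.15 to −0.13), and Col5a2, chosen after its values were seen, had 89 and 102 (−0.32, −0.74 to 0.11). Within alveolar-leaning cells Col1a1 was at 599 and 579 CPM once the Sftpc-rich cell was left out. Of 17 elastic fibre genes, 4 were at least 2-fold lower in the remaining fibroblasts and 0 were higher. They included Fbln2, a fibulin, with 93 and 34 UMIs (−1.96, −2.58 to −1.38), of which 93 and 32 were in adventitial-leaning cells and 25 of the NP UMIs in 1 cell. Eln, which encodes elastin, had 417 and 530 UMIs (−0.17, −0.35 to 0.02), and was chosen after its values were seen. Nid1, which links basement membrane networks, was at 384 and 169 CPM (−1.18, −1.53 to −0.84). Collagen processing genes had a median of −0.02 over 15 genes, with 0 at 2-fold in either direction. Of 17 other collagen and basement membrane genes 1 was at least 2-fold lower, with a median of −0.16, and of 18 proteoglycans and matricellular genes 1 was higher and 1 lower, with a median of −0.19.

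Among proteases and their inhibitors, 1 gene was at least 2-fold higher and 1 at least 2-fold lower of 18 in the remaining fibroblasts. Adamts5, a protease that cuts proteoglycans, was the lower, with 87 and 38 UMIs (−1.71, −2.30 to −1.14), and Timp1, a metalloprotease inhibitor, was the higher, with 15 and 57 UMIs (1.41, 0.57 to 2.34). Timp1 was chosen after its values were seen. Mmp3, a stromelysin, had 77 UMIs in 16 saline cells and 187 UMIs in 15 NP cells, but 1 NP cell held 72 of these.

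Of 12 complement genes over the gate, 5 were at least 2-fold lower and 10 were below 0, with a median of −0.57. Clu, the complement inhibitor clusterin, had 539 and 146 UMIs, of which 515 and 94 were in mesothelial-marked cells, and C2 had 248 and 81, of which 229 and 47 were there. In the remaining fibroblasts the sign of both turned, with Clu at 24 and 51 UMIs (0.58, −0.15 to 1.34) and C2 at 19 and 34 (0.33, −0.52 to 1.22). Cd55, which blocks complement on the cell surface, remained lower with 60 and 37 UMIs (−1.21, −1.84 to −0.60), and it was the 1 complement gene of 12 at 2-fold there.

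Hhip and the genes that go with it were higher in NP fibroblasts, with more cells of this kind. Of the 9 measured genes of the peribronchial and myofibroblast list, 5 were at least 2-fold higher and 0 were lower, with a median of 1.31, and the remaining fibroblasts had 5 of 8 and a median of 1.05. Hhip itself had 116 UMIs in 14 saline cells and 555 UMIs in 46 NP cells, or 157 and 736 CPM. It lies at chr8:79965851-80058006 on the minus strand, and as it defines the set its own level there is a description. Acta2, the smooth muscle actin gene, had 76 and 219 UMIs (1.49, 1.11 to 1.89). Aspn, a small proteoglycan, had 111 and 327 (1.52, 1.21 to 1.85). P2ry14, a receptor for UDP sugars, had 26 and 81 (1.60, 0.95 to 2.30). Within the set the levels were closer. In the Hhip-marked cells, 10 saline and 39 NP, Aspn was at 1759 and 1982 CPM (0.17, −0.20 to 0.56), Acta2 at 1393 and 1201 CPM (−0.21, −0.65 to 0.24) and Enpp2, which makes lysophosphatidic acid, at 1148 and 1141 CPM (−0.01, −0.48 to 0.49).

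The Hhip-marked cells had few alveolar list transcripts, at 147 CPM in saline and 320 CPM in NP. They did carry adventitial list transcripts, at 6695 and 8375 CPM, of which Gsn, an actin-severing protein also found in the other sets, was the most abundant. Their own list summed to 12412 and 12505 CPM. Dcn, a gene of the gate, was at 2077 and 4638 CPM in them, while C3 had 2 and 4 UMIs. The rule held Cox4i2, Higd1b and Pdgfrb under 3 UMIs in each cell. Of genes outside the list, Mt1, a metallothionein that binds zinc and copper, was at 4154 CPM in saline and 7060 CPM in NP (0.77, 0.53 to 1.01), although 89 of the 170 saline UMIs were in 1 cell. Atf3, a stress transcription factor chosen after its values were seen, was at 855 and 1788 CPM (1.06, 0.55 to 1.62). Rgs2, a regulator of G-protein signaling chosen after its values were seen, was at 2981 and 3357 CPM there (0.17, −0.12 to 0.47), while over the gate it had 219 UMIs in saline and 729 in NP.

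Of 10 chemokine and cytokine genes over the gate, 3 were at least 2-fold higher in NP and 2 were lower, and a few cells carried them. Cxcl13, a B cell attractant, had 14 UMIs in 3 saline cells and 355 UMIs in 1 NP cell. The same NP cell held 77 of the 142 NP UMIs of Ccl2, which attracts monocytes, and 41 of the 113 of Cxcl1, which attracts neutrophils. A second cell, Hhip-marked, held 59 of the Ccl2 UMIs, and Ccl2 was detected in 4 NP and 2 saline cells in all, 10 of its 11 saline UMIs being in 1 cell. Cxcl1 had 21 UMIs in 9 saline cells and 113 in 14 NP cells, a log2 ratio of 2.39 (1.71 to 3.14). Leaving out its top cell in each library, the remaining fibroblasts had a ratio of 2.34. A UMI of Cxcl1 was found in 9.64% of saline and 10.0% of NP remaining fibroblasts, and in 4.32% and 7.74% of thinned cells, with intervals that overlapped. Nfkbia, the NF-κB inhibitor that NF-κB itself induces, had 120 UMIs in 49 saline and 313 UMIs in 75 NP cells of the remaining fibroblasts (0.87, 0.56 to 1.19), which were 59.0% and 53.6% of the cells, with 69 of the NP UMIs in 1 cell. It was chosen after its values were seen. Of 13 genes of the TNF and NF-κB list in these cells, 2 were at least 2-fold higher and 1 lower, with a median of 0.06. The sets differed in sign. In alveolar-leaning cells 8 of 9 genes were below 0, with a median of −0.37, and in adventitial-leaning cells, which include the Cxcl13-rich cell, 6 of 7 were above 0, with a median of 0.93.

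Il1b and Saa3 were lower in NP. Il1b, the interleukin-1β gene that neutrophils and monocytes express strongly, had 197 UMIs in saline and 27 in NP, with 82 and 59 of the saline UMIs in 2 cells that each had 5 Ptprc UMIs. Saa3, an acute phase gene, had 178 and 44 UMIs, of which 145 were in 1 saline cell. Without cells that had a Ptprc UMI, Saa3 was at a log2 ratio of 0.06 in the remaining fibroblasts, and Il1b was at −1.15. Levels of S100a8 and S100a9, the most abundant neutrophil transcripts, moved in the same direction, at 0.17% of fibroblast UMIs in saline and 0.079% in NP. Their part in the Il1b ratio was not tested.

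Interferon signaling reaches promoters through known elements. Interferon-γ activates dimers that bind the GAS element, and interferon-induced complexes bind the ISRE, while NF-κB binds the κB element found in class I promoters. For 3 genes described below, a stretch upstream of the start site is shown from RefSeq on GRCm38.p6, 5′ to 3′ on the strand of the gene, with the matched element in capitals. The search read both strands. GAS was TTCNNNGAA, ISRE was TTTC and TTTC with any 2 bases between, and κB was GGG and TTCCC with any 2 bases between. Irf1 (chr11:53769899-53769958, plus strand) matches GAS 90 to 82 bases before its start, Gbp2 (chr3:142620579-142620638, plus strand) matches ISRE 59 to 50 bases before it, and H2-K1 (chr17:34000424-34000483, minus strand) matches κB 111 to 102 bases before it. The distances run from RefSeq start sites. GENCODE starts Gbp2 at chr3:142620602, so its element lies just inside the gene by that annotation.
Irf1: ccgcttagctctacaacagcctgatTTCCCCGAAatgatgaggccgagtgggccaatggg
Gbp2: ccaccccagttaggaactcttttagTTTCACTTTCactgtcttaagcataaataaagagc
H2-K1: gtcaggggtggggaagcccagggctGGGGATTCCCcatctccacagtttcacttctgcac
In windows of 250 bases before to 50 after the start, GAS was matched in 8.30%, ISRE in 3.44% and κB in 1.75% of 32851 promoters. Of 24 interferon-γ list genes found in the table, 8 held a GAS and 12 an ISRE match. A match describes the letters and is no evidence of binding in these cells.

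Interferon-γ genes as a list were not higher in NP fibroblasts, but single members were. Over the gate 1 of 14 was at least 2-fold higher and 3 were lower, with a median of −0.36, and in the remaining fibroblasts 2 of 11 were higher and 0 were lower, with a median of −0.04. The 3 lower genes were C2, Cfb and Gbp2, and 55 of the 74 saline UMIs of Gbp2, a guanylate-binding protein, were in mesothelial-marked cells. The 2 higher genes were Iigp1 and Irf1. Iigp1, a GTPase that attacks the vacuoles of intracellular parasites, had 28 UMIs in saline (58.7 CPM) and 103 in NP (152 CPM) in the remaining fibroblasts, a log2 ratio of 1.37 (0.75 to 2.02). Irf1, a transcription factor that interferon-γ induces at once, had 20 and 63 UMIs (1.14, 0.40 to 1.95). Irf1 was chosen after its values were seen.

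The Iigp1 UMIs were unevenly spread over the sets. There were 15 UMIs in saline and 76 in NP among alveolar-leaning cells without the Sftpc-rich cell, at 56.1 and 184 CPM (1.71, 0.90 to 2.62). In mesothelial-marked cells it had 10 and 23, but 21 of the 23 were in 1 cell. In adventitial-leaning cells it had 13 and 11 UMIs, with 8 and 9 of these in 1 cell each. In Hhip-marked cells it had 0 UMIs in saline and 16 in 7 NP cells. A UMI of Iigp1 was found in 23.6% of saline and 27.7% of NP fibroblasts, and in 5.96% and 14.7% when each cell was thinned to 1500 UMIs, with intervals that overlapped (2.30% to 12.98% and 9.36% to 22.1%). In alveolar-leaning cells without the Sftpc-rich cell, the thinned shares were 7.36% of 43 saline and 17.6% of 73 NP cells (1.46% to 19.1% and 9.84% to 28.5%), and single draws differed from these means. In cells with 5% or more S100a8 and S100a9 UMIs, the group that holds most neutrophils, the unthinned shares were 0.324% and 2.29%. The paper reports a larger part of neutrophils with interferon genes after NP, so these shares are no background level. The median depths were 5864.5 and 4133 UMIs in fibroblasts against 6484 and 6053 in all other cells, not in that group alone. The whole group of 16 interferon-inducible GTPases summed to 371 CPM in saline and 402 CPM in NP fibroblasts (0.12, −0.13 to 0.36). Without Iigp1 the other 15 were lower over the gate, at 319 and 227 CPM (−0.49, −0.79 to −0.20). In the remaining fibroblasts the sums of all 16 were 222 and 346 CPM (0.64, 0.30 to 0.98), and without Iigp1 they were 164 and 194 CPM (0.25, −0.17 to 0.67). By set, the ratio without Iigp1 was −0.06 (−0.63 to 0.52) in alveolar-leaning cells, here with the Sftpc-rich cell. It was −0.04 (−0.91 to 0.80) in adventitial-leaning cells. In Hhip-marked cells it was 2.10 (0.46 to 4.43), on 3 saline and 47 NP UMIs, and these intervals overlapped.

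**Figure D5:**
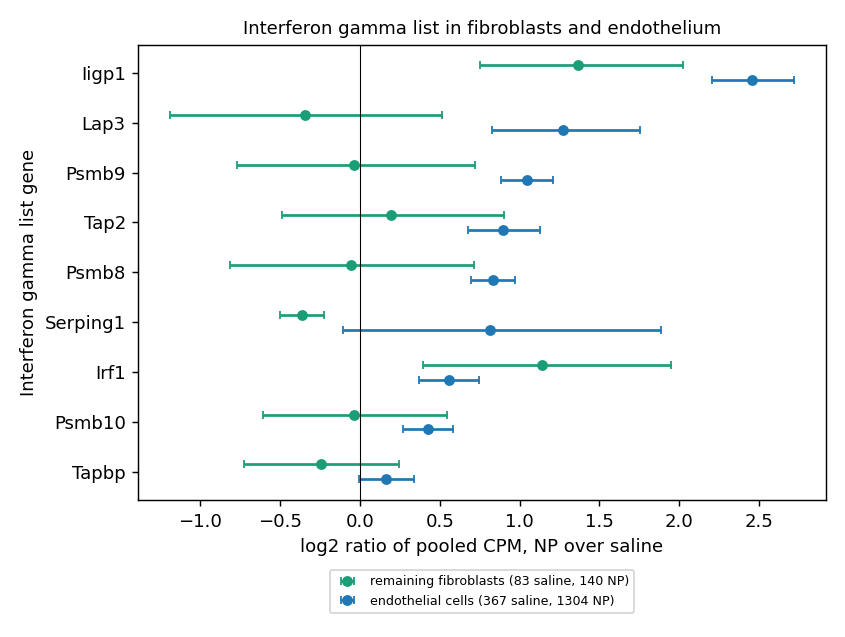
The log2 ratio of pooled CPM, NP over saline (x axis), for interferon-γ list genes with at least 50 UMIs in both the remaining fibroblasts (green) and endothelial cells (blue), with bars for 95% counting intervals. Iigp1 and Irf1 lie right of 0 in both cell types, while Psmb8 lies near 0 in fibroblasts and right of 0 in endothelium.

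Endothelial cells from the same libraries had a different profile of values. There 25 of 36 interferon-γ genes were at least 2-fold higher in NP, with a median of 1.32, against 2.51% of all 9364 genes higher and 0.972% lower. For the 11 genes measured in the remaining fibroblasts, the endothelial median was 0.83. Transcripts of other cells also differed between the endothelial libraries. The epithelial list, led by Sftpc, summed to 22318 CPM in saline and 2407 CPM in NP, and the monocyte and macrophage list to 1425 and 793 CPM. Lyz2 set that sum, at 1235 and 287 CPM, while 9 of the 10 measured genes of the list were above 0 and 6 were at least 2-fold higher, with a median of 1.22. Their part in the endothelial values was not tested. The 16 GTPases summed to 805 CPM in saline and 2785 CPM in NP endothelium (1.79, 1.70 to 1.88), and Iigp1 was at 90.9 and 498 CPM (2.46, 2.20 to 2.72). Both cell types share the libraries, and with 1 library each the difference between them was not tested.

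The MHC class I genes were lower over the gate, and most were above 0 in the remaining fibroblasts. All 14 measured genes had ratios below 0 over the gate, at a median of −0.31, while in the remaining fibroblasts 9 were above 0 and 5 below, at a median of 0.12. H2-K1, which encodes a class I heavy chain and lies at chr17:33996017-34000347 on the minus strand, had 574 UMIs in saline (779 CPM) and 495 in NP (656 CPM) over the gate, a log2 ratio of −0.25 (−0.42 to −0.07). Of these UMIs, 426 saline and 100 NP UMIs were in mesothelial-marked cells, where its level was 1638 and 1765 CPM. In the remaining fibroblasts it had 148 UMIs in 50 of 83 saline cells and 386 UMIs in 95 of 140 NP cells, or 311 and 568 CPM, a log2 ratio of 0.87 (0.59 to 1.15).

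H2-K1 was higher in NP within each of the other sets. It was at 314 and 475 CPM in alveolar-leaning cells without the Sftpc-rich cell (0.60, 0.22 to 0.98), at 350 and 752 CPM in adventitial-leaning cells without the Cxcl13-rich cell (1.10, 0.59 to 1.62) and at 122 and 554 CPM in Hhip-marked cells (2.18, 0.90 to 3.84), the last on 5 saline UMIs. With cells thinned to 1500 UMIs the ratio in the remaining fibroblasts was 1.03, with an estimate of free RNA subtracted it was 0.87, and without its top cell in each library it was 0.92. A UMI of H2-K1 was found in 31.7% (20.8% to 42.9%) of saline and 49.2% (40.2% to 58.3%) of NP thinned cells, with intervals that overlapped. B2m, the light chain of class I, was at 980 and 1212 CPM (0.31, 0.14 to 0.47), and H2-D1 at 1689 and 1973 CPM (0.22, 0.10 to 0.35). In endothelial cells H2-K1 was at 2734 and 4879 CPM (0.84, 0.79 to 0.88). H2-K1 and B2m were chosen after their values were seen. BALB/c mice carry another MHC haplotype than the reference strain and class I genes resemble each other, so their separate counts are uncertain in both libraries.

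The interferon-α list had 1 gene at least 2-fold higher and 3 lower of 9 over the gate, and 0 in either direction of 7 in the remaining fibroblasts. Isg15, a ubiquitin-like modifier, was the higher, with 18 and 46 UMIs (1.32, 0.50 to 2.19), 14 of the latter in 1 cell. Bst2, the antiviral tether tetherin, had 572 and 181 UMIs, of which 517 and 107 were in mesothelial-marked cells. Ifi27l2a had 609 and 280 UMIs, and was still lower in the remaining fibroblasts with 289 and 219 (−0.91, −1.17 to −0.65), while in endothelial cells it was at 29.8 and 72.7 CPM. Cd74, the class II invariant chain and the 1 class II list gene at 50 UMIs, had 4 UMIs in saline and 53 in 19 cells in NP in the remaining fibroblasts, against 500 and 2445 CPM in endothelial cells. The part of RNA from other cells in it was not tested.

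The other groups are given against a median of −0.01 over all genes of the gate. Antioxidant and metal-binding genes had a median of −0.08 over 15 genes in the gate and 0.06 in the remaining fibroblasts, with none at 2-fold. Immediate early genes, which rise when tissue is dissociated, had medians of 0.24 over 21 genes and 0.11 over 20. Fos had 2979 UMIs in saline and 3489 in NP (0.19, 0.12 to 0.26). Its part in the other ratios was not tested. TGF-β response genes had a median of 0.55 over 14 genes in the gate, with 12 of 14 above 0, and of 0.08 in the remaining fibroblasts, where Acta2 was the 1 gene at 2-fold. Genes of lipid handling had medians of −0.13 and −0.06. Among them Lpl, lipoprotein lipase, was lower in both, with 123 and 65 UMIs in the remaining fibroblasts (−1.43, −1.89 to −0.99). Lrat, which stores retinol as its ester, had 192 and 149 UMIs there (−0.88, −1.20 to −0.56). Growth factor genes had medians of 0.23 over 21 genes in the gate and 0.08 over 16 in the remaining fibroblasts. Mesenchymal transcription factors had medians of 0.60 and 0.30, with 11 of 14 above 0 and 3 at least 2-fold higher in the gate and 0 in the remaining fibroblasts. Genes of activated and cancer-associated fibroblasts had medians of 0.22 over 8 genes and 0.11 over 5. Pdpn, the glycoprotein podoplanin, had 120 and 34 UMIs over the gate and 29 and 16 without the mesothelial-marked and mixed cells. Retinoid genes had medians of −0.23 and −0.17. Of 16 cell cycle genes only 2 reached 50 UMIs, and neither was at 2-fold.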

How the data were processed

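The authors deposited unfiltered gene by barcode UMI counts for each library, made per the labels with bcl2fastq and Cell Ranger 6.0 on mm10, while the file headers name Cell Ranger 4. The counts summed to 91168129 UMIs over 32285 genes in saline and 90081747 in NP. The raw counts per cell were used as deposited, and pooled to CPM with a count under 3 set to 3. Ratios have exact conditional binomial 95% intervals and shares have Clopper-Pearson intervals, both for counting error only, since there was 1 library per condition and no model could be fitted. Positions and names came from the files and GENCODE, in which 99.8% of gene identifiers were found.

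The cells, gene lists and sets were chosen with earlier results of these data known. The 34 lists covered 3 fibroblast sets, 9 other cell types and 22 functions, and 3 listed genes were not found. Genes named are the 12 highest and 12 lowest ratios among genes with at least 100 UMIs, the 4 largest ratios and the most abundant gene of each list, and the marker and subset genes. Of the others, each was chosen after its values were seen. The smooth muscle list had 1 of 5 genes at 2-fold, the endothelial list 1 of 4 lower, and 0 lymphocyte genes reached 50 UMIs.

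Free RNA was taken from barcodes with under 50 UMIs. From S100a8 and S100a9, which made up 19.5% of it in saline and 11.5% in NP, free RNA was estimated at no more than 0.876% and 0.686% of fibroblast UMIs, in cells that the gate had limited to under 5% of UMIs from these genes. Values of single genes in cells thinned to 1500 UMIs are exact means over all draws, chosen after seeing the data, with intervals for the nearest whole count, while counts of genes and set shares rest on 1 draw. Doublets were kept. Scrublet marked 1 saline cell (0.0115%), which shows that it did not work there, and 311 NP cells (3.73%), of which 1 was a fibroblast. The calculations were tested on simulated data. The alternatives were other limits on cells, genes and depth, other scalings, free RNA subtraction and single sets. The tools were scanpy 1.11.5, matplotlib 3.10.9, pandas 2.3.3, scipy 1.17.1 and numpy 2.4.6 under Python 3.11.15.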

Additional observations from a re-analysis of the deposited data

Results flagged for a closer look

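The interferon-γ list median was −0.36 in NP over saline fibroblasts and 1.32 in endothelial cells of the same libraries. The interferon-α list had medians of −0.23 and 0.60, and MHC class I genes had medians of −0.31 and 0.84. Each was picked out because the values lay on opposite sides of 0 in the 2 cell types, and the difference was not tested. The fibroblast values are over the whole gate. In the remaining fibroblasts the interferon-γ median was −0.04, the interferon-α median −0.15 and the class I median 0.12, the last on the same side of 0 as in endothelial cells. Outside the main cells, 14 NP and 6 saline barcodes met the fibroblast markers but exceeded the mitochondrial limit.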

How the results depend on the processing

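With 1 library per condition, no replicate could be left out. No paired analysis was possible because each condition has a single library. Against 99 higher and 199 lower genes, a minimum of 20 UMIs gave 297 and 476, and 200 UMIs gave 21 and 54. Thinned cells gave 19 and 28, and leaving out the deepest 10% of cells gave 57 and 126. Leaving out cells with Epcam or Acta2 or marked mesothelial gave 45 and 71, and the remaining fibroblasts gave 54 and 73. Alveolar-leaning cells by list share alone gave 30 and 28, and Hhip-marked cells gave 27 and 9. The number of genes with enough UMIs changes with the setting, so a smaller count need not be a smaller share. It was 4615 in the gate, 3710 in the remaining fibroblasts and 496 in Hhip-marked cells. In Hhip-marked cells 5.44% were higher and 1.81% lower, against 2.15% and 4.31% in the gate. The log2 ratio of the fibroblast share, 0.54, was 0.82 without mesothelial-marked cells, −0.26 among cells low in S100a8 and S100a9 and −0.89 among cells without Ptprc. The interferon-γ median ranged from −0.80 to 0.53, with the highest value, from 1 measured gene, in Hhip-marked cells alone, where Dcn (1.16), Mustn1 (−0.19) and Acta2 (−0.21) also turned. Saa3 turned to 0.47 with at least 10 marker UMIs and to 0.41 without Ptprc. C2 and Clu turned to 0.27 and 0.30 without the cells with Epcam, Acta2 or mesothelial genes, and to 0.33 and 0.58 in the remaining fibroblasts. Among cells taken by alveolar list share alone, C3 was at 0.24, Msln at 2.38, Upk3b at 0.27 and Bst2 at 0.095. That choice lets in a single saline and a single NP mesothelial-marked cell, with 32 and 121 UMIs over Msln and Upk3b. The cause of these values was not tested. Among single genes and other lists, 1306 of 1627 values under alternatives stayed inside the main interval, 308 left it and 13 reversed. For a list median the interval was that of its middle genes. Reversed means a change of sign from a main ratio of at least 2-fold. Sign changes from smaller ratios are among the other values, so 13 is not the number of all changes of direction. Of 91 values for the main counts, medians and share, 71 held, 17 moved and 3 reversed. For the medians and share, reversed also covers smaller ratios that changed sign and left the interval. Gene counts have no interval and were judged by their fold change. Alternatives chosen after seeing the data were the remaining fibroblasts, Hhip-marked cells alone, each gene without its top cell and the share without mesothelial-marked cells. Thinly counted genes limit the smaller sets, and the planned setting without doublets was not run, since Scrublet did not work on saline.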
